A study of Mus musculus with 12 samples.

Results

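Retinoic acid synthesis and response genes were followed in RNA-seq libraries from mouse embryonic fibroblasts (MEFs, connective tissue cells grown from embryos) with and without RTF2, a protein of the replication fork. The group held 9 genes, namely Stra6, Aldh1a1, Aldh1a2, Aldh1a3, Dhrs3, Crabp1, Crabp2, Cyp26b1 and Rarb. They were chosen by name and gene symbol with earlier results of these data in view, and Aldh1a2 was picked by its rise in RTF2-deficient MEFs of both lines. All 9 were among the 24100 genes of the deposited count table. Stra6 did not pass the filter on low counts, so 8 were tested. Because the rise of Aldh1a2 chose it, its genotype values are a description with no test.

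The 12 libraries formed 4 groups of 3, which were WT (Rtf2+/+) and RTF2-deficient (Rtf2-/lox) MEFs of line 1 and of line 2. Every group, WT included, received Cre, the recombinase that cuts out the floxed part of Rtf2, and RNA was taken 72 hrs later. The study describes SV40-immortalized MEFs in sets of littermates from different mothers, and elsewhere calls the 3 libraries of a group technical replicates. P-values therefore measure only the spread between such libraries, and the 2 lines are the only biological repeats.

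Retinoic acid is the active form of vitamin A. Retinol enters cells through the STRA6 receptor, is oxidized to retinal, and is turned into retinoic acid by the retinaldehyde dehydrogenases ALDH1A1, ALDH1A2 and ALDH1A3, while DHRS3 reduces retinal back to retinol. Retinoic acid binds the carrier proteins CRABP1 and CRABP2, acts in the nucleus through retinoic acid receptors such as RARB paired with retinoid X receptors, and is broken down by CYP26 enzymes. In embryos its local supply patterns the hindbrain, the limbs and the heart. Fibroblasts in culture take retinol from serum, and several of these genes are themselves induced by retinoic acid.

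Promoters are shown for Aldh1a2, the enzyme gene picked by its rise, and for Rarb, whose promoter holds the textbook retinoic acid response element. The sequences are RefSeq's on GRCm38.p6, from 250 bases before to 50 bases after the start of transcription. Aldh1a2 lies at chr9:71215539-71215838 on the plus strand and Rarb at chr14:16575427-16575726 on the minus strand. Capitals mark a match to the response element searched.
Aldh1a2: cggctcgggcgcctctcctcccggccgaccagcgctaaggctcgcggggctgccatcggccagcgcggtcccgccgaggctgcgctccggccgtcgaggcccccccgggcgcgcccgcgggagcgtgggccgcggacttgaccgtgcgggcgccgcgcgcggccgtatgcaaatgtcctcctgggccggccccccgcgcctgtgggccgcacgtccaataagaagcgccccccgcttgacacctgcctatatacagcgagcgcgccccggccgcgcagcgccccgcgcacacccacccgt
Rarb: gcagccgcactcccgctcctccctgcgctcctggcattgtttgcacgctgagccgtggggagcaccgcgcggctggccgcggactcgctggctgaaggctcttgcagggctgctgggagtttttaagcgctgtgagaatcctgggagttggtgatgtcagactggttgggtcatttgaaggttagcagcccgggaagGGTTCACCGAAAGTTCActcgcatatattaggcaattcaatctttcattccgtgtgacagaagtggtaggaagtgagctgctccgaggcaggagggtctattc
The search, on both strands, was for a pair of hexamers in one orientation with 5 bases between them. The hexamer AGGTCA was accepted in either place, and so was the common variant AGTTCA of such elements. The further variant GGGTCA was accepted in either place too, as was the variant GGTTCA, taken up because it opens the known Rarb element. A match in Rarb was thus fixed by the choice of letters and is no result of the search. The Rarb match begins 53 bases and ends 37 bases before the start of transcription. Such a match was in 32 of the 32851 RefSeq promoters, or 0.0974%. Repeats with spacers of 1 or 2 bases were in 0.222% and 0.268% of all promoters. RefSeq promoters were at hand for 7 of the 9 genes (13 promoters), and none of them other than Rarb's held a match with any of the 3 spacers.

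Library totals lay between 39360167 and 44695002 counts, so 3 counts, taken as the limit that a count of 0 allows, were at most 0.0770 CPM (counts per 1000000, scaled by TMM). That limit covers counting error only. Rtf2 lay between 44.8 and 57.8 CPM in WT libraries and between 5.44 and 6.66 CPM in RTF2-deficient ones. Xist was at 0.132 CPM or less and Ddx3y between 91.8 and 107 CPM in WT line 2, whereas the other 9 libraries had Xist between 103 and 173 CPM and Ddx3y at 0.195 CPM or less. In line 2, and between the WT lines, this difference cannot be told apart from genotype or line. The comparison of genotypes over both lines includes the WT line 2 libraries, so it carries part of this difference too. The 9 fibroblast markers summed to between 13072 and 21033 CPM. The tests were edgeR quasi-likelihood tests, and "past the test" means a Benjamini-Hochberg adjusted p under 0.05 over all 14263 genes. In line 1, libraries of the same replicate number deviated together, so its values are also given from a fit of that line alone with the number as a block ("the paired fit"), which passed 29.1% of all genes there, against 3.2% in the fit of all libraries. The paired fit was added after these deviations were seen, and the labels do not say what a number shares.

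Levels of the 9 genes ran from barely detected to high. On the scale of CPM per kilobase of exon, averaged over the 12 libraries, Crabp1 was highest at 29.7 (91.3rd percentile of the 19144 genes detected) and Crabp2 next at 16.6. Cyp26b1 followed at 6.45, Dhrs3 at 5.86, Aldh1a3 at 2.38 and Rarb at 0.728. Aldh1a2 was at 0.437, Aldh1a1 at 0.117 and Stra6 lowest at 0.0157 CPM per kilobase (16.8th percentile). Over the 12 libraries the ranges of every neighbouring pair in this order overlapped. The lowest Crabp1 library (8.63 CPM per kilobase) still lay above the highest Aldh1a3 library (4.83). On average the carriers and the catabolic enzyme stood above the synthesizing enzymes, of which Aldh1a3 had the highest level.

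**Figure D1:**
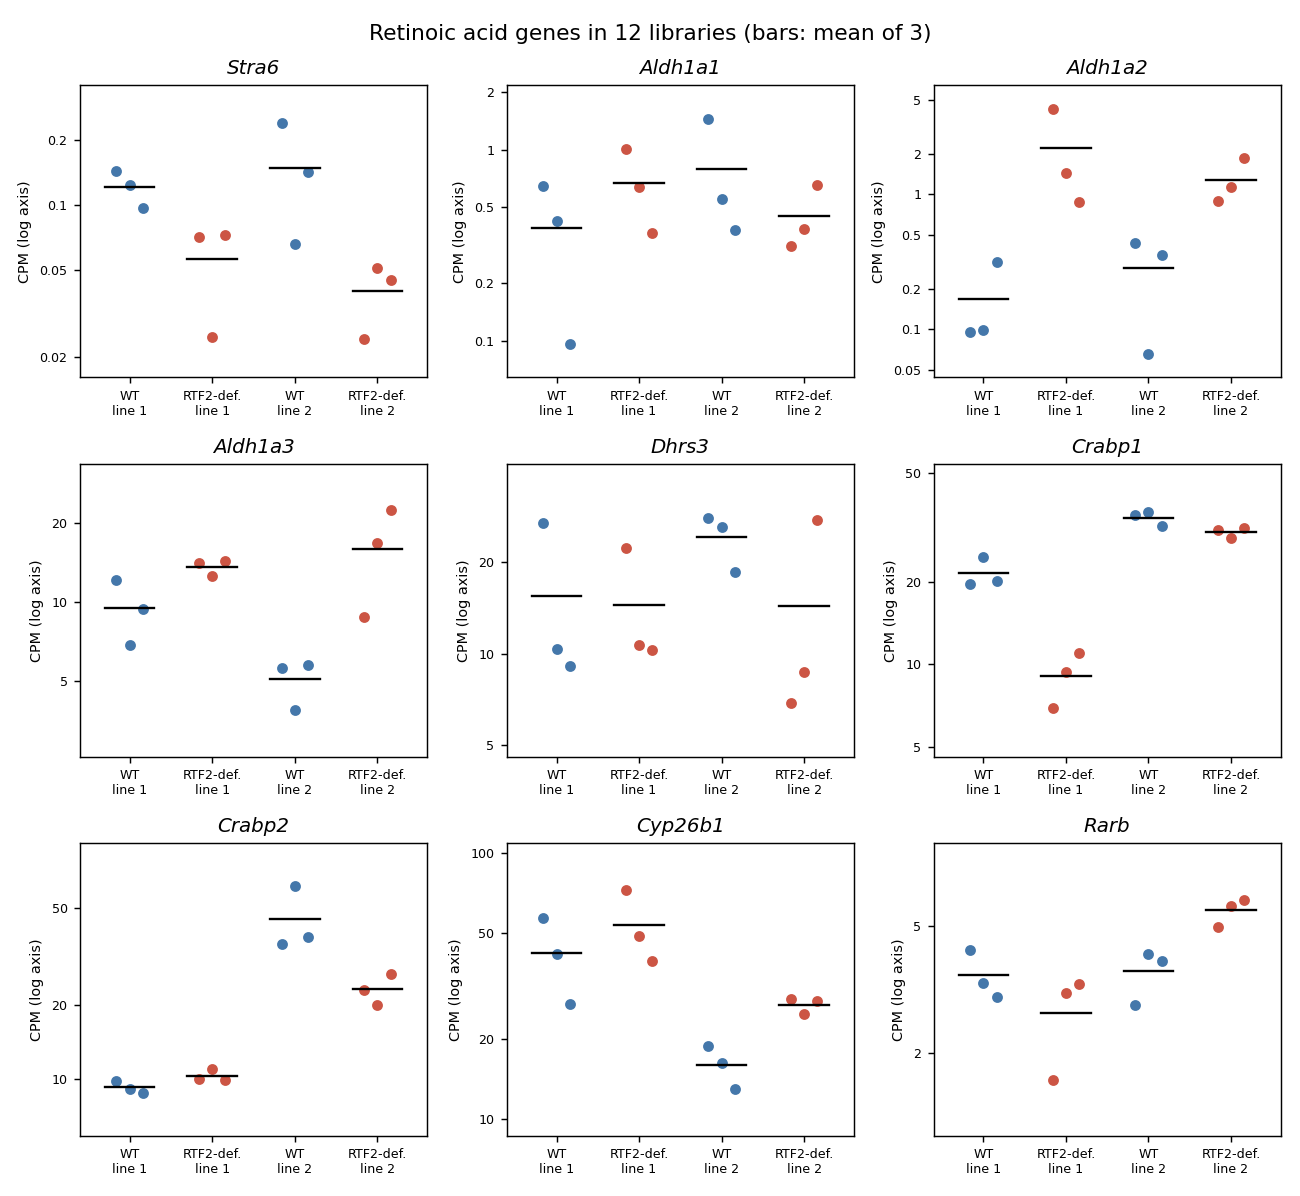
Each panel plots 1 gene, with CPM on a log axis against the 4 groups (blue, WT; red, RTF2-deficient); points are libraries and black bars the mean of 3. Aldh1a2 lies between 0.0661 and 0.434 CPM in the WT libraries and between 0.878 and 4.32 CPM in the RTF2-deficient ones.

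Stra6, the cell-surface receptor for retinol bound to its carrier (chr9:58063793-58154004, plus strand), was barely detected. WT line 1 gave 6, 5 and 4 counts and RTF2-deficient line 1 gave 3, 1 and 3. WT line 2 gave 11, 3 and 6 counts and RTF2-deficient line 2 gave 1, 2 and 2. The RTF2-deficient libraries lay below the WT libraries of the same line in CPM, at values near or under the limit of 3 counts, so no fold change is given.

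Aldh1a2, the main retinaldehyde dehydrogenase of the early embryo (chr9:71215789-71296243, plus strand), was low in WT MEFs and higher in RTF2-deficient MEFs of both lines. In WT line 1 it had 0.0955, 0.0991 and 0.314 CPM, from 4, 4 and 13 counts. RTF2-deficient line 1 had 4.32, 1.45 and 0.878 CPM, from 181, 59 and 36 counts. WT line 2 had 0.434, 0.0661 and 0.354 CPM, and RTF2-deficient line 2 had 0.890, 1.13 and 1.85 CPM. The lowest RTF2-deficient library, at 0.878 CPM, lay above the highest WT library, at 0.434 CPM. The log2 fold change, RTF2-deficient over WT, was 2.89 over both lines (a 7.41-fold level), 3.69 in line 1 and 2.17 in line 2. The first RTF2-deficient library of line 1 stood apart from its group, and without it the line 1 value was 2.75, while without WT line 1 replicate 3 it was 4.46. In the paired fit it was 3.53. Even the highest library held only 1.91 CPM per kilobase, below the 2.38 that Aldh1a3 averaged.

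Aldh1a3, a retinaldehyde dehydrogenase of the eye, nose and skin (chr7:66390892-66427477, minus strand), also rose, and passed the test over both lines and in line 2. WT line 2 had 5.58, 3.86 and 5.74 CPM and RTF2-deficient line 2 had 8.78, 16.7 and 22.3 CPM. WT line 1 had 12.1, 6.86 and 9.38 CPM and RTF2-deficient line 1 had 14.0, 12.5 and 14.3 CPM. Within each line the genotypes did not overlap, whereas over both lines they did. Over both lines the log2 fold change was 1.08 (SE 0.27, adjusted p = 0.0214), and in line 2 it was 1.65 (SE 0.31, adjusted p = 0.00649). In line 1 it was 0.52 (adjusted p = 0.526), or 0.54 and past the test in the paired fit (adjusted p = 0.00977), and the difference between the lines, 1.13, did not pass the test (adjusted p = 0.409). The call over both lines was lost without WT line 2 replicate 3 (adjusted p = 0.0542) and without RTF2-deficient line 2 replicate 2 (adjusted p = 0.0502).

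Aldh1a1, the third retinaldehyde dehydrogenase (chr19:20492583-20643463, plus strand), was low and did not separate the groups. Its libraries ran from 0.0965 to 1.45 CPM, from 4 to 67 counts, and the 4 groups overlapped. Over both lines its log2 fold change was −0.04 (95% interval −1.15 to 1.08, adjusted p = 0.972), and in line 1 it was 0.78 (adjusted p = 0.706, and 0.0824 in the paired fit). In line 2 it ran from −1.17 to −0.035 with 1 library left out, never past the test. The value of Aldh1a1 over both lines thus joins opposite directions. Its close paralog Aldh1a7 lies beside it and was as low, at 0.0482 to 0.693 CPM, so reads shared by the pair leave both values uncertain.

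Dhrs3, the reductase that returns retinal to retinol and a known retinoic acid target (chr4:144892534-144928209, plus strand), varied widely among libraries of 1 group, with a standard deviation of 0.77 on the log2 scale. Line 1 had 27.0, 10.4 and 9.12 CPM in WT and 22.3, 10.7 and 10.3 CPM in RTF2-deficient MEFs. WT line 2 had 28.1, 26.1 and 18.6 CPM and RTF2-deficient line 2 had 6.88, 8.70 and 27.5 CPM. Each of the 3 groups other than WT line 2 held 1 library far above its other 2. The log2 fold change of −0.43 over both lines did not pass the test (95% interval −1.29 to 0.42, adjusted p = 0.496), nor did that of −0.10 in line 1 (adjusted p = 0.967, and 0.706 in the paired fit). In line 2 it ran from −1.62 to −0.42 with 1 library left out, with adjusted p from 0.0524 to 0.739 by edgeR.

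In each group the library with the highest Dhrs3 was also the one with the highest interferon-stimulated genes, measured as the median log2 CPM of 20 such genes. In WT line 1 that score was 4.31, 1.14 and 1.94 in replicates 1, 2 and 3, and in RTF2-deficient line 1 it was 2.19, 0.905 and 1.26. In WT line 2 it was 8.61, 5.03 and 6.80, and in RTF2-deficient line 2 it was 2.04, 3.56 and 7.27. Between the other libraries of a group the order of Dhrs3 was opposite to that of the score in 3 of the 4 groups, all but RTF2-deficient line 2. In all 4 groups the library with the highest score had the highest CPM of Aldh1a1 too, as it did for 15.4% of the 14263 genes tested. It held in 3 of 4 groups for Aldh1a2 and Cyp26b1, in 2 for Aldh1a3, Crabp2, Rarb and Stra6, and in 1 for Crabp1. The part of the interferon-stimulated genes in these values was not tested.

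**Figure D2:**
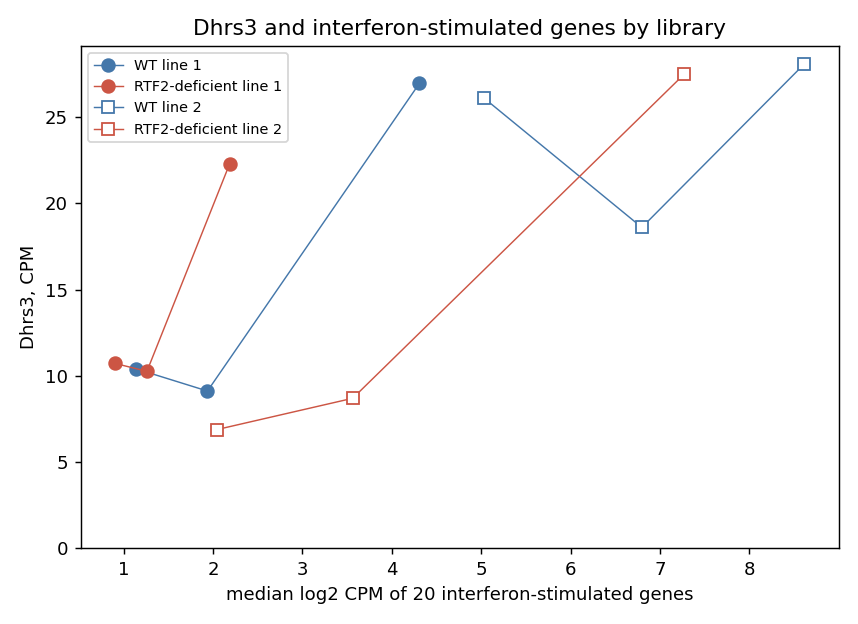
Dhrs3 in CPM is plotted against the median log2 CPM of 20 interferon-stimulated genes, 1 point per library, with lines joining the libraries of a group (filled circles, line 1; open squares, line 2; blue, WT; red, RTF2-deficient). The rightmost library of each group is its highest in Dhrs3, from 22.3 to 28.1 CPM, while the other libraries run the opposite way in 3 of the 4 groups.

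Crabp1, a carrier that holds retinoic acid in the cytoplasm (chr9:54764748-54773110, plus strand), fell in RTF2-deficient MEFs of line 1. WT line 1 had 19.7, 24.6 and 20.2 CPM and RTF2-deficient line 1 had 6.93, 9.37 and 11.04 CPM, with no overlap. Line 2 had 35.0, 35.8 and 32.0 CPM in WT and 31.0, 28.9 and 31.4 CPM in RTF2-deficient MEFs, close but again with every RTF2-deficient library below every WT one. The log2 fold change was −1.24 in line 1 (SE 0.15, adjusted p = 0.00165, and 0.000166 in the paired fit) and −0.17 in line 2 (95% interval −0.49 to 0.15, adjusted p = 0.484). The difference between the lines was 1.07 (SE 0.21, adjusted p = 0.0373), past a test that 1.29% of all genes passed. Crabp1 was the only 1 of the 7 tested genes other than Aldh1a2 to pass it. Leaving out any 1 of 10 libraries, all but RTF2-deficient line 1 replicates 1 and 3, lost that call, with adjusted p from 0.0510 to 0.102. Over both lines Crabp1 fell by 0.69 on the log2 scale (SE 0.19, adjusted p = 0.0305). That call was lost without any 1 library of WT line 1, without RTF2-deficient line 1 replicate 2 or 3, or without RTF2-deficient line 2 replicate 2, with adjusted p from 0.0533 to 0.0800. With the replicate number as a block over all libraries, edgeR lost the Crabp1 calls over both lines (adjusted p = 0.0510) and for the difference between lines (adjusted p = 0.0578).

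Crabp2, the carrier that delivers retinoic acid to its receptors in the nucleus (chr3:87948693-87953372, plus strand), showed the opposite order of lines. WT line 1 had 9.77, 9.07 and 8.76 CPM and RTF2-deficient line 1 had 9.98, 10.9 and 9.87 CPM, just above every WT library. WT line 2 had 35.5, 61.1 and 37.9 CPM and RTF2-deficient line 2 had 23.1, 19.9 and 26.8 CPM, below every WT library of that line. Crabp2 fell by 0.95 on the log2 scale in line 2 (SE 0.19, adjusted p = 0.00788) and was at 0.16 in line 1 (adjusted p = 0.811, and 0.172 in the paired fit). With line 2 fitted alone the adjusted p was 0.0565. The difference between the lines, −1.10, did not pass the edgeR test (adjusted p = 0.0899) and passed with DESeq2 (adjusted p = 0.00631). Over both lines the value was −0.41 (adjusted p = 0.218).

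Cyp26b1, an enzyme that breaks down retinoic acid and is induced by it (chr6:84571414-84593908, minus strand), was higher in RTF2-deficient than in WT means of both lines. Line 1 had 57.0, 41.5 and 27.0 CPM in WT and 72.2, 48.7 and 39.2 CPM in RTF2-deficient MEFs, with overlap, though each RTF2-deficient library lay above the WT library of its number. In line 1 the log2 fold change was 0.35 (adjusted p = 0.660), and it was 0.36 and past the test in the paired fit (SE 0.06, adjusted p = 0.00276). WT line 2 had 18.8, 16.2 and 13.0 CPM and RTF2-deficient line 2 had 28.2, 24.8 and 27.7 CPM, with none. RTF2-deficient over WT, the log2 fold change was 0.55 over both lines (SE 0.19, adjusted p = 0.0835) and 0.75 in line 2 (adjusted p = 0.0984). Both passed with DESeq2, at adjusted p = 0.0292 and 0.0350, and with the replicate number as a block over all libraries, at 0.0237 and 0.0214. The line 2 value passed also with line 2 fitted alone (adjusted p = 0.0314). Over both lines edgeR also passed it without WT line 1 replicate 1 (adjusted p = 0.0215) or without RTF2-deficient line 1 replicate 3 (adjusted p = 0.0465).

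Rarb, the retinoic acid receptor whose own promoter carries the element shown above (chr14:16430839-17082331, minus strand), did not pass the test in either line. In WT line 1 there were 4.20, 3.30 and 2.99 CPM and RTF2-deficient line 1 had 1.65, 3.07 and 3.29 CPM. WT line 2 had 2.82, 4.08 and 3.87 CPM and RTF2-deficient line 2 had 4.96, 5.75 and 6.04 CPM, above every WT library of both lines. The log2 fold change was 0.13 over both lines (95% interval −0.37 to 0.63, adjusted p = 0.743), −0.39 in line 1 (adjusted p = 0.588, and 0.268 in the paired fit) and 0.64 in line 2 (adjusted p = 0.126). Without RTF2-deficient line 1 replicate 1, which enters only the shared spread, the line 2 adjusted p was 0.0490. Rarb shares 1793 exon bases with Top2b on the opposite strand, at 202 to 281 CPM and a log2 fold change of 0.11. The use of strand in counting is not given in the sources used here, so Rarb values may hold Top2b reads.

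Counted together, 2 of the 7 tested genes other than Aldh1a2 passed the test over both lines, Aldh1a3 higher and Crabp1 lower, against 13.2% of all genes tested (4.98% higher and 8.18% lower). With the study's further threshold of a log2 fold change beyond 1, Aldh1a3 alone of the 7 was left, against 1.72% of all genes. With the replicate number as a block over all libraries, Crabp1 did not pass over both lines (adjusted p = 0.0510) and Cyp26b1 did (adjusted p = 0.0237), against 11.5% of all genes. In line 1 the count was 1 (Crabp1) against 3.2%, or 3 (Crabp1 lower, Aldh1a3 and Cyp26b1 higher) against 29.1% in the paired fit, and in line 2 it was 2 (Aldh1a3 and Crabp2) against 12.5%. The 7 genes had a median log2 fold change of −0.04 over both lines, beside 0.00194 over all genes tested. When the 3 libraries of each line and genotype were summed to 1, edgeR passed 0 of 15862 genes over both lines (2894 at an unadjusted p under 0.05), and Aldh1a3 and Crabp1 had adjusted p = 0.246 and 0.327. Rtf2, the gene cut by Cre, did not pass there either, at a log2 fold change of −3.02. That fit of sums therefore cannot decide about single genes.

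**Figure D3:**
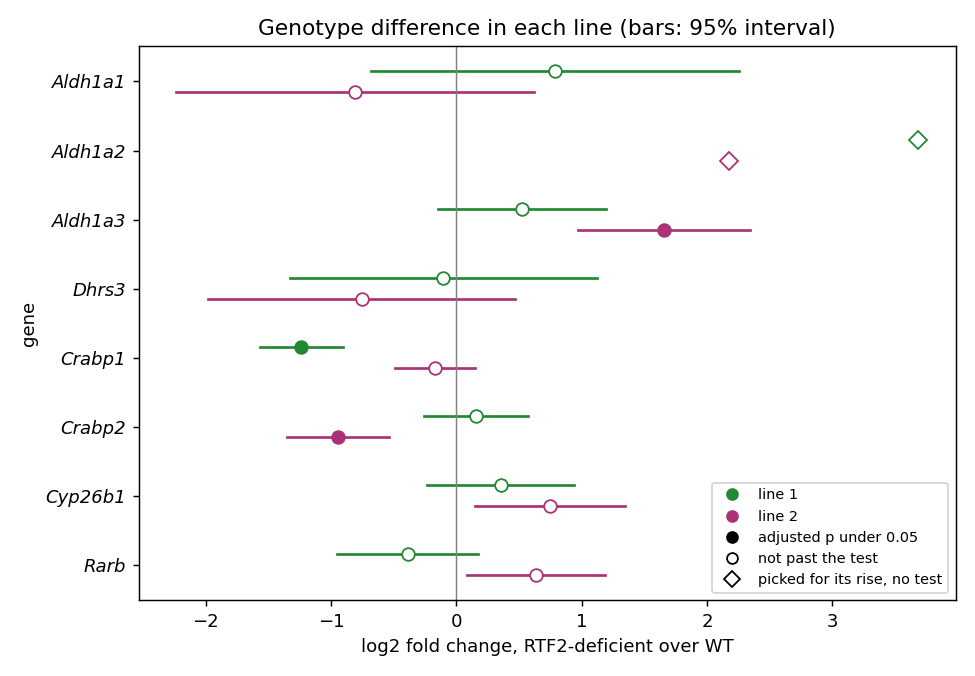
The log2 fold change, RTF2-deficient over WT, is plotted for the 8 tested genes in line 1 (green) and line 2 (purple), with 95% intervals from edgeR; filled points passed the test in the fit of all libraries and diamonds mark Aldh1a2, given with neither interval nor test. In that fit Crabp1 passed in line 1 alone, Aldh1a3 and Crabp2 in line 2 alone, and Aldh1a2 lies at 3.69 and 2.17.

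The lines also differed in these genes. Between WT lines, Crabp2 was 4.87-fold higher in line 2 (log2 fold change 2.28, SE 0.19, adjusted p = 3.40e-05) and Crabp1 1.59-fold higher (0.67, adjusted p = 0.0110). Cyp26b1 was lower in WT line 2 by a log2 fold change of −1.39 (SE 0.27, adjusted p = 0.00658). These were 3 of the 8 tested genes, against 14% of all genes, and all 3 passed with any 1 library left out. Aldh1a3 was also lower in WT line 2, at −0.90 (adjusted p = 0.0773), which passed with DESeq2 (adjusted p = 0.0213), without RTF2-deficient line 2 replicate 1 (adjusted p = 0.0230) and without RTF2-deficient line 2 replicate 3 (adjusted p = 0.0419).

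Between the RTF2-deficient lines, Crabp1 was higher in line 2 by 1.74 (SE 0.15, adjusted p = 0.000176) and Crabp2 by 1.18 (SE 0.19, adjusted p = 0.00855). These were 2 of 8 genes, against 1.94% of all genes, and both passed with any 1 library left out. Cyp26b1 (−0.99, adjusted p = 0.109) and Rarb (1.06, adjusted p = 0.0647) did not pass with edgeR and passed with DESeq2 (adjusted p = 0.00901 and 0.00278). Cyp26b1 passed also with the replicate number as a block (adjusted p = 0.0344). Rarb passed also without WT line 2 replicate 1 (adjusted p = 0.0492). Aldh1a2 did not separate the lines in WT (0.74, adjusted p = 0.628, and from 0.27 to 1.51 with 1 library left out) or in RTF2-deficient MEFs (−0.78, adjusted p = 0.688).

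The rest of the pathway was read from a list of 52 further genes, of which 39 were tested. Over both lines 1 rose and 2 fell, which is 3 of 39 against 13.2% of all genes, and DESeq2 passed 3 higher and 3 lower, against 18.9% of all genes. With 1 library left out, 1 to 3 were higher (2 without WT line 1 replicate 2 or RTF2-deficient line 2 replicate 3, and 3 without WT line 2 replicate 1) and 1 to 3 were lower. Crebbp, a histone acetyltransferase that nuclear receptors recruit, rose by 0.56 on the log2 scale (SE 0.09, adjusted p = 0.00240), and its lowest RTF2-deficient library (58.0 CPM) lay above its highest WT library (50.8 CPM). Rarres1, a gene known to respond to retinoids, was lower by a log2 fold change of −1.39 (SE 0.39, adjusted p = 0.0354), from 10.4 to 30.3 CPM in WT and from 3.08 to 11.7 CPM in RTF2-deficient libraries. The Rarres1 call was lost without any 1 of 7 libraries, which were WT line 1 replicate 1, WT line 2 replicates 2 and 3, and replicates 2 and 3 of RTF2-deficient line 1 and 1 and 2 of RTF2-deficient line 2 (adjusted p from 0.0700 to 0.0851), and without each of these the count lower was 1. The other gene was Dhrs4, which codes for a retinal reductase (−0.42, adjusted p = 0.00250).

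In line 2 alone 5 of the 39 were higher and 1 lower, against 5.42% and 7.03% of all genes. Without RTF2-deficient line 2 replicate 3 that was 6 higher and 5 lower, without WT line 2 replicate 2 it was 5 and 2, without RTF2-deficient line 2 replicate 1 it was 4 and 0, and without RTF2-deficient line 2 replicate 2 it was 3 and 0.

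By role, the 5 tested receptors other than Rarb had log2 fold changes from −0.22 to 0.19 over both lines, and the 8 coregulators from −0.07 to 0.56. Among 10 known response genes 1 was lower (Rarres1), against 8.18% of all genes lower, and 9 did not pass. In line 2 alone 4 of those 10 were higher and 0 lower, against 5.42% and 7.03% of all genes. They were named after their values were seen. The count higher was 3 or 4 with 1 library left out and 3 with the replicate block, and without RTF2-deficient line 2 replicate 3 or WT line 2 replicate 2 there were also 2 or 1 lower. They were the Hox gene Hoxb4 (1.04), the Hox cofactor genes Meis1 (0.80) and Meis2 (0.50), and Nr2f1 (1.29), an orphan receptor gene induced by retinoic acid. In line 1, 1 response gene was lower (Hoxa4, −0.95, adjusted p = 0.0401), against 2.52% of all genes lower, and that count was 0 without any 1 of 9 libraries, all but WT line 1 replicate 3 and WT line 2 replicates 1 and 2, or with the replicate number as a block over all libraries (adjusted p = 0.0549). The paired fit of line 1 had 4 of 9 response genes lower (Hoxa4, Hoxd4, Meis2 and Rarres1), against 14.7% of all genes, and of 37 listed genes it had 6 higher and 7 lower, against 14.4% and 14.7%.

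Response genes also set the WT lines apart. Of the 10 tested, 7 were lower in WT line 2 than in WT line 1, namely Hoxa4, Hoxb4, Hoxd4, Meis1, Meis2, Nr2f1 and Nr2f2, with log2 fold changes from −2.50 to −0.39, against 7.31% of all genes lower. The median of the 10 was −1.22, beside 0.0152 over all genes tested. Leaving out 1 library gave 6 or 7 lower. Hoxb4, Meis1, Meis2 and Nr2f1 were also the response genes higher with RTF2 deficiency in line 2. Both comparisons use the same WT line 2 libraries, so they are not separate observations. Between the RTF2-deficient lines 1 of the 10 was lower (Meis2, −0.67, adjusted p = 0.0245), against 0.841% of all genes lower, with a median of −0.37, and DESeq2 passed 3, against 4.87% of all genes. That count of 1 ran from 0 to 3 with 1 library left out, and was 0 without RTF2-deficient line 1 replicate 1 or 2 or any 1 library of RTF2-deficient line 2. Of the rest of the list, Rbp4, the serum retinol carrier, Dhrs9, a retinol dehydrogenase gene, Cyp26c1, a catabolic enzyme gene, and Adh5, an alcohol dehydrogenase gene, were higher in WT line 2, against 6.7% of all genes higher. That count of 4 was 1 without WT line 1 replicate 2 or 3 or WT line 2 replicate 3, and 2 without WT line 1 replicate 1, WT line 2 replicate 1, RTF2-deficient line 1 replicate 3 or RTF2-deficient line 2 replicate 2. Rbp4 ran from 0.198 to 0.502 CPM in WT line 1 and from 2.27 to 4.17 CPM in WT line 2, and Dhrs9 from 0.338 to 1.003 and from 7.32 to 16.1 CPM.

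**Figure D4:**
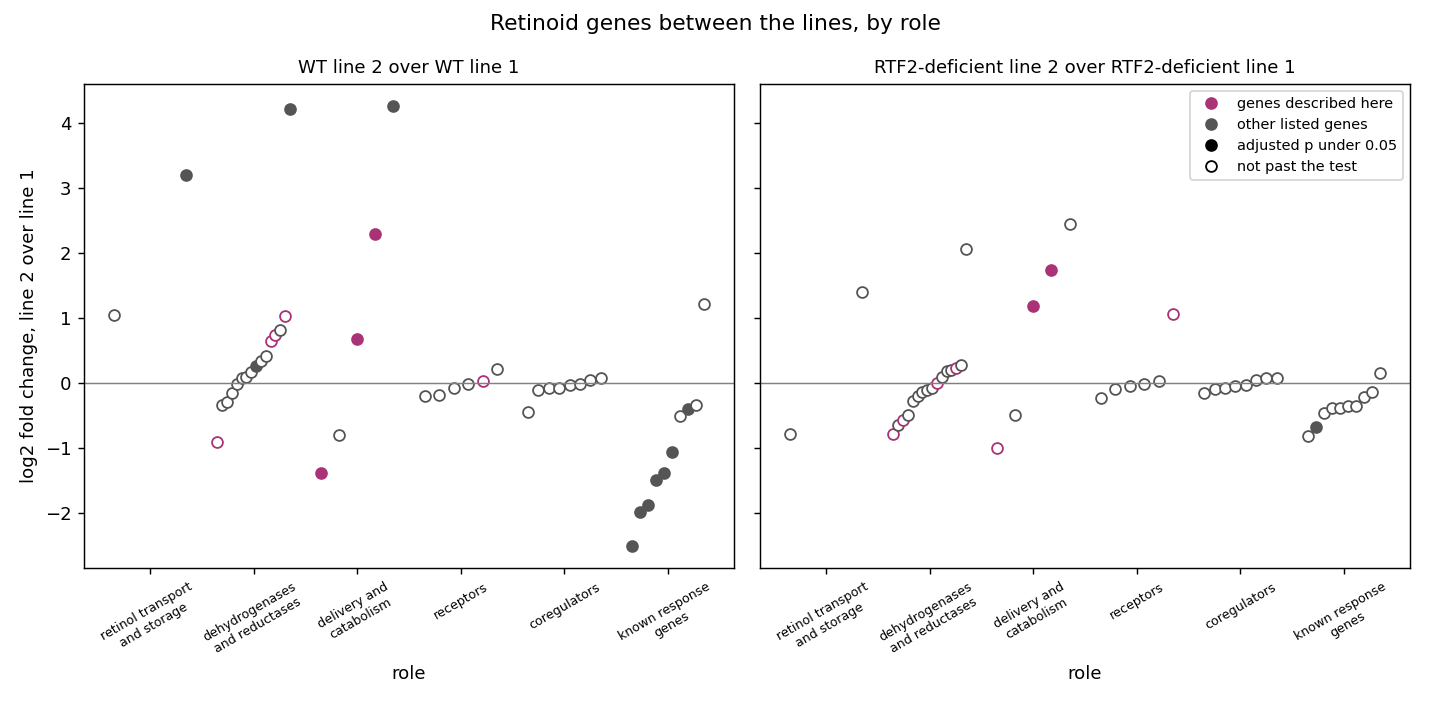
Log2 fold changes, line 2 over line 1, are plotted for the tested retinoid genes by role, for WT (left) and RTF2-deficient MEFs (right); purple points are the genes described, grey points the rest of the list, and filled points passed the edgeR test. In WT, 7 of 10 response genes lie below 0 and past the test, while in RTF2-deficient MEFs 1 does.

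Aldh1a2 and the Wt1-expressing mesothelium go together in embryos, so markers of mesothelium and epicardium were read beside it. Of 9 such markers 8 were in the table, and their summed level lay between 41.2 and 66.5 CPM in WT line 1, 34.2 and 68.2 in RTF2-deficient line 1, 100.5 and 139 in WT line 2, and 60.6 and 103 in RTF2-deficient line 2. Krt19 and Tbx18, which other cells use too, made up most of that sum. Wt1 was at 0 in all WT line 1 libraries and at 3 counts or fewer in RTF2-deficient line 1, where Aldh1a2 had 36 to 181 counts. In line 2 Wt1 had 18 to 20 counts in WT and 6 to 9 in RTF2-deficient libraries, opposite to Aldh1a2. Of the 7 tested, Msln was lower in RTF2-deficient MEFs over both lines (−2.18, adjusted p = 0.00429). No marker of the list was higher and past the test over both lines or in either line. In line 1 none passed in the fit of all libraries, and the median log2 fold change was 0.54. Upk1b was at 1.72 (95% interval 0.29 to 3.15, adjusted p = 0.207) and Upk3b at 1.01 (adjusted p = 0.631), both from 42 counts or fewer per library in that line. Wt1 was at 3.57 there (adjusted p = 0.245), from the few counts given above. Values of these markers in the paired fit are not reported here. In line 2 the median was −1.17 and 2 were lower, Msln and Lrrn4, against 7.03% of all genes. The Lrrn4 call held only without WT line 2 replicate 2 or RTF2-deficient line 2 replicate 3 among the 12 fits with 1 library left out. Their part in the Aldh1a2 values was not tested. In bulk libraries fewer cells of a type and less RNA per cell cannot be told apart.

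Summed markers of other cell types also moved with genotype within a line. In line 1 the 6 epithelial markers lay between 2.06 and 2.36 CPM in WT and between 2.77 and 4.27 CPM in RTF2-deficient libraries, and the 5 endothelial markers between 10.7 and 14.7 and between 17.6 and 21.5 CPM. The 5 neural crest and glia markers were lower there, from 1.26 to 1.43 CPM in WT and with a median of 0.884 CPM in RTF2-deficient libraries, none of which reached the WT range. In line 2 the 5 skeletal muscle markers lay between 6.36 and 9.40 CPM in WT and between 12.6 and 18.4 CPM in RTF2-deficient libraries, and the 5 neuron markers between 32.5 and 72.5 and between 75.7 and 125 CPM. The 5 macrophage and blood markers were lower there, from 6.97 to 9.66 CPM in WT and from 4.84 to 5.98 CPM in RTF2-deficient libraries. None of these lists was apart between genotypes in both lines. A few genes carried much of these sums. Over the 12 libraries Des reached 18.3 CPM, Tubb3 53.3, Stmn2 111, Kdr 15.2, Tek 12.5, Cd68 8.95 and Krt18 12.4 CPM. The sums therefore do not show that whole lists moved. Some markers of these lists were near 0 in every library, with at most 5 counts for Krt5 and Krt14, 9 for Cdh5, 5 for Pecam1, 5 for Ptprc, 6 for Sox10 and 7 for Snap25. Others were not, with up to 138 counts for Cdh1, 122 for Myod1, 412 for Cd68, 522 for Tek, 712 for Des and 4560 for Stmn2. Of the 17 tested markers of cell types other than fibroblast and mesothelium, 2 were higher over both lines against 4.98% of all genes, Krt18, a keratin gene of simple epithelia (0.74, adjusted p = 0.0381), and Kdr, a growth factor receptor gene of endothelium (0.58, adjusted p = 0.0492). Both calls were lost in 9 of the 12 fits with 1 library left out, all but those without WT line 1 replicate 3, RTF2-deficient line 1 replicate 1 or RTF2-deficient line 2 replicate 3. In line 1 none of the 17 passed in the fit of all libraries, and their values in the paired fit are not reported here. In line 2 alone 2 of the 17 were lower, the macrophage marker Cd68 (−1.07, adjusted p = 0.00809) and the glial marker S100b (−1.72, adjusted p = 0.0389), against 7.03% of all genes. That count of 2 was 1 with the replicate block or without any 1 of 8 libraries, all but WT line 1 replicate 1, WT line 2 replicate 2 and replicates 1 of RTF2-deficient line 1 and 3 of RTF2-deficient line 2. Markers also set the WT lines apart. In WT line 2, 4 of the 7 mesothelial markers were higher (Wt1, Upk1b, Msln and Lrrn4), against 6.7% of all genes higher and 7.31% lower. Msln lay between 15.5 and 28.9 CPM there against 0.573 to 1.38 CPM in WT line 1. Beside the same shares of all genes, Krt8, Krt18 and Cd68 of the 17 markers of other types were higher and Myod1 and Tubb3 lower (1 lower without WT line 2 replicate 1). Of 9 fibroblast markers Col1a2, Pdgfrb and Thy1 were lower. The part of these cell types in the values of the retinoic acid genes and of the response genes was not tested.

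The genes most like Aldh1a2 across the 12 libraries were found by the root mean square difference of centred log2 CPM. They were 9530027J09Rik (0.857), the matrix metalloproteinase gene Mmp9 (0.996), Gm16070 (1.02), the small nucleolar RNA gene Snora68 (1.03) and Gm16596 (1.05), where Aldh1a2 itself had a root mean square of 1.57. Mmp9 had 8 to 59 counts and 9530027J09Rik 0 to 17, so the likeness rests on low counts. None of the other 7 tested retinoic acid genes was among the 5, and Stra6, which was not tested, was not searched.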

How the data were processed

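The deposited table held the authors' raw counts for each gene and library, not normalized, under Entrez Gene identifiers. The methods describe single-end reads quantified with Salmon on mm10 gene models and gathered with tximport, but HTSeq and mm10 stand in the submitters' processing notes, so the counting tool is not settled, and the use of strand is not given in the sources used here. Symbols and positions came from RefSeq's GRCm38.p6 annotation (24045 of 24100 identifiers) and exon lengths from GENCODE M21.

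Counts were analysed in R 4.3.3 with edgeR 4.0.16 (filterByExpr on the 4 groups, TMM, glmQLFit and glmQLFTest). The genotype test had terms for line and genotype, and a layout of the 4 groups gave each line, their difference and the line comparisons. Scripts were tested on simulated data. Totals are given with the results. The members and gene lists were chosen with earlier results of these data known. Genes named were the 9 members, Rtf2, other listed retinoid genes past the test over both lines with a log2 fold change of at least 0.5 in size, and the 5 nearest to Aldh1a2 (prior count of 2). Some listed genes are not reported here. Other names were chosen after their values were seen. Alternatives were DESeq2 1.42.0, RLE in place of TMM, genes unfiltered or kept at 1 CPM in 3 libraries, a replicate block, summed triplicates and each library left out. Fits of each line alone were added after seeing the data. Deviations of same-numbered libraries correlated at 0.43, 0.48 and 0.62 in line 1 and from −0.59 to 0.17 in line 2. So by this check alone the numbers paired line 1 and not line 2. The labels do not say what a number shares. A fit of line 1 alone with the replicate block was therefore added (13685 genes, 6 libraries).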

Additional observations from a re-analysis of the deposited data

Results flagged for a closer look

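By edgeR's test of the difference, adjusted over all genes, RTF2 deficiency had unequal effects in line 1 and line 2 for 1 of the 7 retinoic acid genes tested beside Aldh1a2 and for 2 of the other 39 tested on the list, against 1.29% of all genes. With DESeq2 5 of the 39 passed, beside 2.87% of all genes, all of them response genes (Hoxa4, Hoxb4, Meis1, Meis2 and Nr2f1), and with the replicate block over all libraries none did. For Crabp1 the log2 fold changes were −1.24 in line 1 and −0.17 in line 2, a difference of 1.07 (adjusted p = 0.0373) with the larger effect in line 1. For Hoxa4 the difference was 1.49 (adjusted p = 0.0441), from −0.95 to 0.54, and for Meis1 it was 0.84 (adjusted p = 0.0363), from −0.04 to 0.80. With that block the adjusted p was 0.0654 for Hoxa4, 0.0612 for Meis1 and 0.0578 for Crabp1. The calls for Crabp1, Hoxa4 and Meis1 were lost in 10, 10 and 9 of the 12 fits with 1 library left out, with adjusted p up to 0.102, 0.126 and 0.0990. The calls held only without RTF2-deficient line 1 replicate 1 or 3 for Crabp1, without WT line 1 replicate 3 or WT line 2 replicate 2 for Hoxa4, and without those last 2 or WT line 2 replicate 1 for Meis1. The WT libraries of line 2 differ from the other 9 in Xist and Ddx3y, and the part of that difference in these values was not tested. The same libraries enter the comparison of the WT lines, where Hoxa4 and Meis1 were lower in line 2.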

How the results depend on the processing

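With single libraries left out, the number of the 7 genes past the test over both lines ran from 0 to 2, the number past the test of the difference between lines from 0 to 1, and the number of all genes over both lines from 1158 (without RTF2-deficient line 2 replicate 2) to 1974. The other counts of retinoic acid genes stayed within 1.5 times. Summing triplicates left 0 of the 7 genes, as in the whole table, where Rtf2 itself did not pass either. With DESeq2, 2 of the 7 genes passed the test of the difference between lines and 4 of the 8 differed between the RTF2-deficient lines, and of all genes 852 against 456 passed in line 1, 409 against 184 for the difference and 695 against 276 between the RTF2-deficient lines. By the correlation of deviations alone the replicate numbers paired line 1 and not line 2, and the labels do not say what a number shares. The fit of line 1 alone with the replicate block passed 3 of the 7 genes and 3985 of all genes, against 367 without the block. With a replicate block over all libraries, 0 of the 7 genes passed the test of the difference between lines (132 of all genes), the adjusted p of Crabp1 there being 0.0578 and over both lines 0.0510, and that of Cyp26b1 over both lines 0.0237. The block turned the log2 fold change of Aldh1a1 over both lines to 0.16, and that of Dhrs3 between RTF2-deficient lines, to 0.084, while the filter of 1 CPM gave 0.0027. Values of the 9 genes that changed sign with 1 library left out were Aldh1a1 over both lines (−0.31 to 0.42), Dhrs3 in line 1 (−0.56 to 0.57) and between RTF2-deficient lines (−0.90 to 0.45), Rarb between WT lines (−0.075 to 0.18), and Aldh1a2 (−1.15 to 0.15) and Aldh1a3 (−0.10 to 0.51) between RTF2-deficient lines, as did Meis1 in line 1 (−0.10 to 0.0014). None of these had passed the test. The causes were not tested. Depth limits Stra6, Aldh1a1 and Aldh1a2 in WT, each at 67 counts or fewer.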

Other observations

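Of the 39 listed genes tested outside the 9, 6 (Rbp4, Rdh12, Dhrs9, Rarg, Rxra and Ncoa1) had their highest library where the interferon-stimulated genes were highest in all 4 groups, the 15.4% also found over all genes tested. In 3 of the 4 groups 11 more did so, which is 28.2% of the 39 beside 15.5% of all genes. Of the 4 listed genes higher in WT line 2, Rbp4 and Dhrs9 did so in 4 groups, Cyp26c1 in 3 and Adh5 in 0. Rbp4 was at 5.85 CPM in RTF2-deficient line 2 replicate 3 beside 0.722 and 0.795 CPM in the other libraries of that group. Dhrs9 was at 6.01 CPM in that library beside 1.59 and 1.85 CPM. Cyp26c1 had 0 to 4 counts in WT line 1 and 6 to 65 in WT line 2.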
